A study of Mus musculus with 3 samples.

Results

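The miR-17 seed family groups microRNAs (miRNAs, short guides of gene silencing) whose 5p strands share the same seed, the bases 2 to 8 that lead target pairing. Its members here were taken by name: 10 mature forms of the 1915 listed in each library, of which 6 are 5p forms that carry the seed (mmu-miR-17-5p, mmu-miR-20a-5p, mmu-miR-20b-5p, mmu-miR-93-5p, mmu-miR-106a-5p and mmu-miR-106b-5p) and 4 are 3p forms from the opposite strand of the same hairpins (mmu-miR-17-3p, mmu-miR-20a-3p, mmu-miR-93-3p and mmu-miR-106b-3p). All 10 were found in the files, and the prefix for mouse is left out from here on. The samples were whole retinas of C57BL/6 mice (C57BL/6J in the study's methods), for which the labels name no treatment, at postnatal day 1 (P1), day 7 (P7) and day 17 (P17). There was 1 small RNA library per age, made from the retinas of 5 pooled eyes, so that age and library cannot be told apart and the spread between replicates is unknown for every difference between ages. The comparison asks how the level of the family, and the part that each genomic locus contributes to it, differed over postnatal retinal development.

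MiRNAs with the same seed can bind the same sites in messenger RNAs, and the summed level of a seed family is therefore often treated as 1 dose. The miR-17 family is known for its high levels in dividing cells and in embryonic tissues, and its established targets include the cell cycle inhibitor Cdkn1a and the pro-apoptotic protein gene Bcl2l11. The mouse retina still holds dividing progenitor cells at birth, and these cells leave the cell cycle in the first postnatal weeks. In a whole retina, fewer cells of a type and less RNA per cell cannot be told apart.

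The mature sequences are shown to mark what the 6 5p forms share and where they differ, with the seed in capitals and the rest in lower case, from 5′ to 3′ (RefSeq, GRCm38.p6).
miR-17-5p: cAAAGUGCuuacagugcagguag
miR-20a-5p: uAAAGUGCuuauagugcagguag
miR-106a-5p: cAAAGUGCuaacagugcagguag
miR-20b-5p: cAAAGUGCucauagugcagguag
miR-93-5p: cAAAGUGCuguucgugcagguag
miR-106b-5p: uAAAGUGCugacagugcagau

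All 6 carry AAAGUGC at bases 2 to 8. Counted from 1 at the 5′ end and with the base of miR-17-5p first, miR-106a-5p differed from miR-17-5p by U10A alone, and miR-20a-5p differed by C1U and C12U. MiR-20b-5p differed from miR-20a-5p at 2 of 23 bases (U1C and U10C, base of miR-20a-5p first). MiR-93-5p differed from miR-17-5p at 4 of 23 bases. MiR-106b-5p was the only form of 21 bases and the only one that did not end in GCAGGUAG. The 3p forms share neither this seed nor, among themselves, a single one, as their capitals show.
miR-17-3p: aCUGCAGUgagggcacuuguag
miR-20a-3p: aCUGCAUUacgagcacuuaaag
miR-93-3p: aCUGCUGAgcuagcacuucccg
miR-106b-3p: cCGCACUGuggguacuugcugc

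The 6 hairpins lie in 3 paralogous clusters, given in GRCm38 coordinates. Those of miR-17 (chr14:115043671-115043754) and miR-20a (chr14:115044157-115044263) lie on the plus strand, within exon 2 of Mir17hg, a non-coding gene that hosts the miR-17-92 cluster. Those of miR-106b (chr5:138165737-138165818) and miR-93 (chr5:138165523-138165610) lie on the minus strand, between exons 13 and 14 of the 15 exons of the main Mcm7 transcript. Mcm7 encodes a subunit of the replicative DNA helicase, and this cluster also holds miR-25. The miR-93 hairpin also falls inside exon 1 of a retained-intron transcript of the same gene. Those of miR-106a (chrX:52742503-52742567) and miR-20b (chrX:52742113-52742192) lie on the minus strand in the miR-106a-363 cluster. The miR-20b hairpin overlaps no other annotated gene, and that of miR-106a shares 5 bases with the non-coding transcript Kis2.

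The miRNA counts listed for a library summed to 11426320 to 12759995, so that 1 read was worth 0.0784 to 0.0875 RPM (reads per 1000000 miRNA reads). Reads of miR-486a-5p and miR-486b-5p appear under both names, so that these sums count some reads more than once. Levels are given with 95% Wilson intervals, shares and ratios with 95% exact binomial intervals, and all of these cover counting error only. No molecular identifiers are named in the sources used here, so that PCR copies of 1 molecule may be counted as separate reads. The 5 retinal marker miRNAs (miR-182-5p, miR-183-5p, miR-96-5p, miR-124-3p and miR-9-5p) summed to 223656, 432211 and 387928 RPM at P1, P7 and P17. All 3 erythroid markers had reads and summed to 116 to 161 RPM, the 3 muscle markers to 89.97 to 240.1 RPM and the single liver marker to 2.27 to 5.78 RPM. The pair of pigment epithelium markers, miR-204-5p and miR-211-5p, summed to 15211, 7226 and 14334 RPM at P1, P7 and P17. The pair of endothelial markers, miR-126a-3p and miR-126a-5p, summed to 1261, 3643 and 8530 RPM at P1, P7 and P17. Each marker had reads in at least 1 library, and the part of these other cell types in the levels of the family was not tested.

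The pooled level of the 5p seed family was highest at P1 and lowest at P17. The 6 5p forms together had 120934, 47201 and 3495 reads in the P1, P7 and P17 libraries. This was 10584 RPM (10525 to 10643) at the first age, 3699 RPM (3666 to 3733) at the second and 299.8 RPM (290.0 to 309.9) at the third. In shares of all miRNA reads, the family took 1.06%, 0.370% and 0.0300%, in the order of the ages. The pooled level was thus 2.86-fold lower at P7 than at P1 (2.83 to 2.89) and 12.3-fold lower at P17 than at P7 (11.9 to 12.8), together 35.3-fold (34.1 to 36.5). On the log2 scale the differences were -1.52 and -3.63, so that 29.5% of the log2 difference lay in the first 6 days and 70.5% in the following 10 days. Per day this was -0.25 in the first interval and -0.36 in the second. Both the split and the daily values hold for RPM and depend on the scaling of the libraries. With median-of-ratios size factors, described below, the log2 differences were -0.56 and -3.54.

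**Figure D1:**
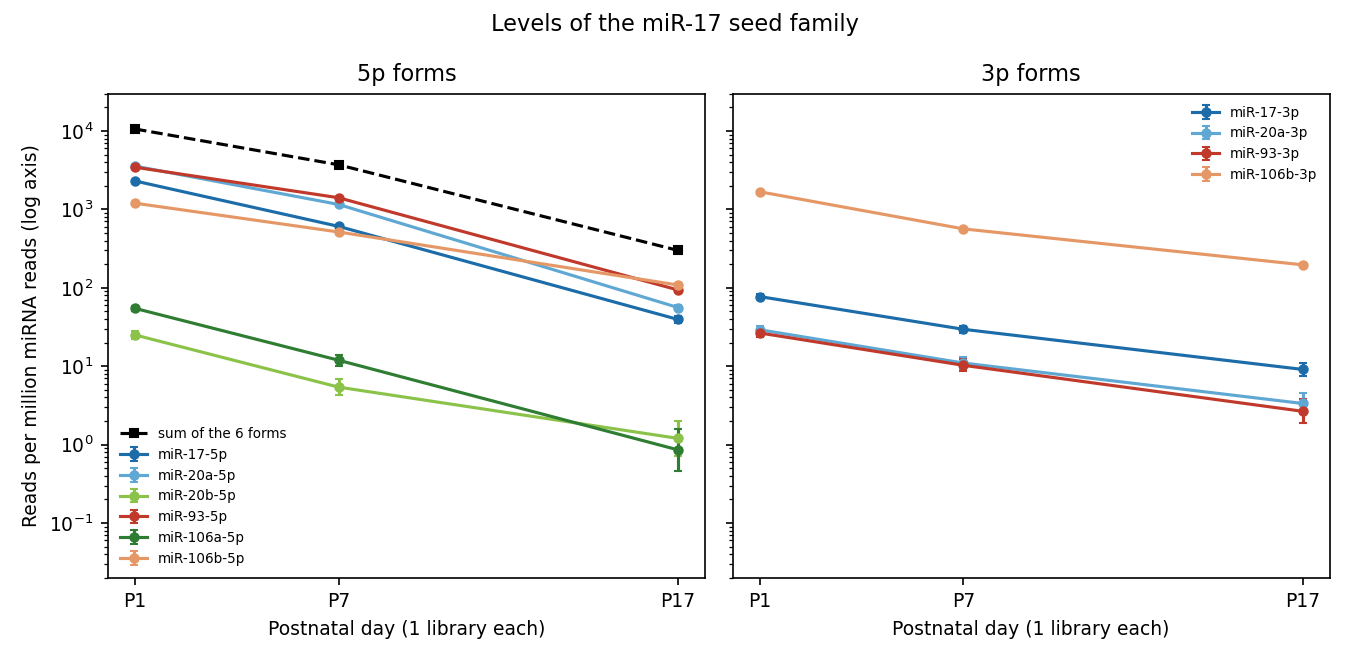
Level of each family form by postnatal day on a log axis of RPM, with 5p forms on the left and 3p forms on the right; bars are 95% Wilson intervals of 1 library per age and the dashed line is the sum of the 6 5p forms. The sum passes from 10584 RPM at P1 to 299.8 RPM at P17, and miR-106b-5p lies below miR-17-5p, miR-20a-5p and miR-93-5p at P1 and above them at P17.

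An RPM value is a share of the library, and the typical miRNA was also lower after P1. Over the 648 miRNAs whose mean level reached 1 RPM, the median log2 difference was -1.004 in the step to P7 and -0.06 in the step to P17. Set against that median, the pooled 5p family differed by -0.51 in the first step and by -3.57 in the second, which therefore lay much further from the typical miRNA. Relative to the median these values are the same under any scaling of whole libraries.

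The part of each locus in the pooled 5p reads also differed between the ages, a measure that no scaling of the libraries can move. The Mir17hg locus (miR-17-5p and miR-20a-5p) gave 55.4% of the family's 5p reads at P1 (55.1 to 55.7), 47.6% at P7 (47.2 to 48.1) and 31.8% at P17 (30.3 to 33.4). The miR-106b-25 locus (miR-93-5p and miR-106b-5p) gave 43.9% at P1 (43.6 to 44.1), 51.9% at P7 (51.5 to 52.4) and 67.5% at P17 (65.9 to 69.0). With only 5p forms counted, the order of these loci was reversed between P1 and P7, whereas with the 3p forms added miR-106b-25 led at P1 too (51.2% against 48.2% for Mir17hg). In the 5p reads, neither locus had overlapping intervals at any pair of ages. The ratio of Mir17hg to miR-106b-25 5p reads was 1.26 at P1 (1.25 to 1.28), 0.917 at P7 (0.901 to 0.934) and 0.472 at P17 (0.439 to 0.507).

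The miR-106a-363 locus (miR-106a-5p and miR-20b-5p) gave under 1% of the family's 5p reads at every age. Its share was 0.752% at P1 (0.705 to 0.803), 0.468% at P7 (0.409 to 0.534) and 0.687% at P17 (0.440 to 1.02). The share was lower at P7 than at P1 beyond counting error, whereas the P17 interval, from 24 reads, overlaps both others. In RPM, the 5p forms of Mir17hg were 61.4-fold lower at P17 than at P1 (57.9 to 65.2), those of miR-106b-25 were 22.96-fold lower (22.03 to 23.9), and those of miR-106a-363 were 38.7-fold lower (25.8 to 60.7).

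**Figure D2:**
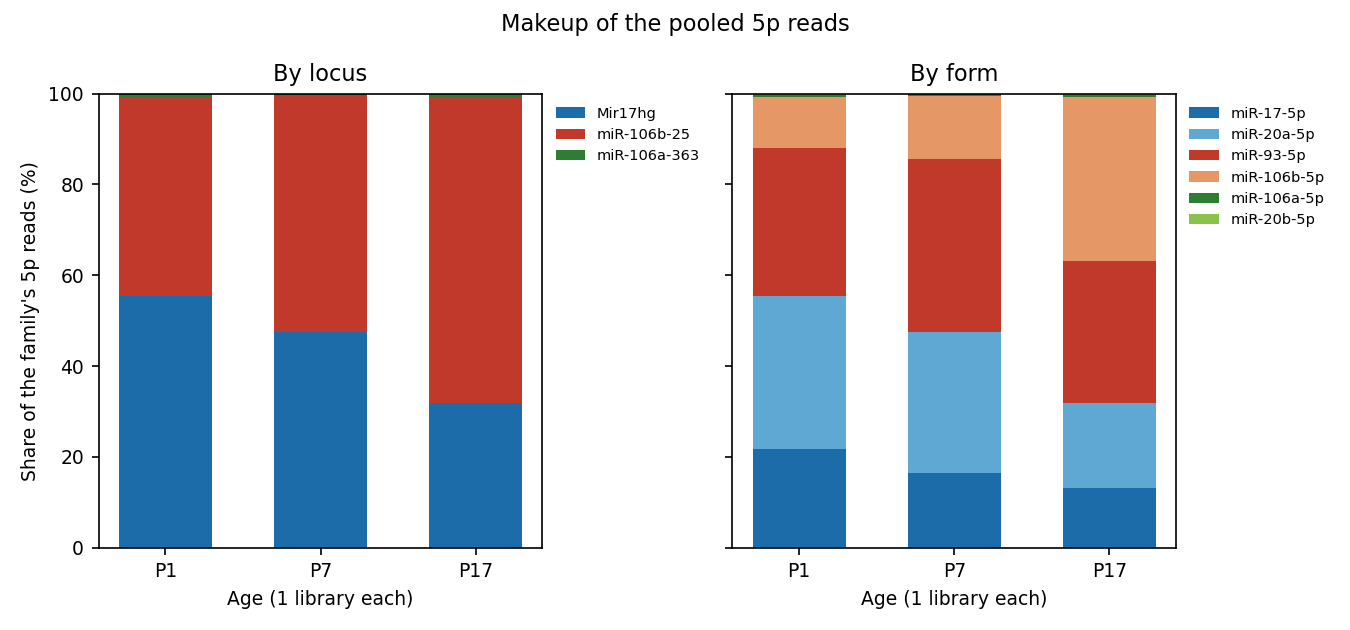
Stacked bars of the share, in percent, of the family's 5p reads by age (1 library each), split by locus on the left and by form on the right. Mir17hg passes from 55.4% at P1 to 31.8% at P17 and miR-106b-5p from 11.3% to 36.2%, whereas miR-106a-363 is a thin band at the top.

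Within Mir17hg, miR-20a-5p was the more abundant 5p form at each age. MiR-20a-5p had 3561, 1155 and 56.0 RPM at P1, P7 and P17. MiR-17-5p had 2301, 607 and 39.5 RPM at P1, P7 and P17. Both were highest at P1 and more than 10-fold lower at P17 than at P7. MiR-20a-5p was 63.6-fold lower at P17 than at P1 (58.8 to 68.8) and miR-17-5p was 58.3-fold lower (53.2 to 64.1), so that the intervals of these folds overlap. The reads of miR-20a-5p were 1.55 times those of miR-17-5p at P1 (1.52 to 1.57), 1.90 times at P7 (1.85 to 1.96) and 1.42 times at P17 (1.26 to 1.60). MiR-20a-5p held 33.6% of the family's 5p reads at P1 and 18.7% at P17, and miR-17-5p held 21.7% and 13.2%.

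The 5p forms from the Mcm7 intron did not follow each other after P7. MiR-93-5p had 3444, 1406 and 93.8 RPM at P1, P7 and P17. MiR-106b-5p had 1198, 514 and 108 RPM at P1, P7 and P17. From P1 to P7 they were lower by folds that lay near each other but did not overlap, 2.45 for miR-93-5p (2.41 to 2.49) and 2.33 for miR-106b-5p (2.26 to 2.40). From P7 to P17, miR-93-5p was 15.0-fold lower (14.1 to 15.9) and miR-106b-5p was 4.75-fold lower (4.47 to 5.04). Their ratio, miR-93-5p to miR-106b-5p, was 2.88 at P1 (2.82 to 2.93), 2.73 at P7 (2.66 to 2.81) and 0.866 at P17 (0.797 to 0.939). MiR-106b-5p thereby held 11.3% of the family's 5p reads at P1 (11.1 to 11.5), 13.9% at P7 (13.6 to 14.2) and 36.2% at P17 (34.6 to 37.8). MiR-93-5p held 32.5% at P1, 38.0% at P7 and 31.3% at P17, so that the larger share of the miR-106b-25 locus at P17 than at P7 lay in miR-106b-5p.

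The X-linked forms were rare. MiR-106a-5p had 624 reads at P1, then 152 and 10 at the later ages, or 54.6, 11.9 and 0.858 RPM. MiR-20b-5p had 286 reads at P1, then 69 and 14, or 25.03, 5.41 and 1.20 RPM. At P17 the intervals of miR-106a-5p (0.466 to 1.58 RPM) and miR-20b-5p (0.715 to 2.02 RPM) overlapped, whereas miR-106a-5p was higher at P1 and P7. From P1 to P17 miR-106a-5p was 63.7-fold lower, a ratio that counting error leaves between 34.4 and 133, and miR-20b-5p was 20.8-fold lower (12.2 to 38.6).

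MiR-106a-5p differs from miR-17-5p by 1 base, and its proportion to miR-17-5p had overlapping intervals at all ages. Its reads were 2.37% of the miR-17-5p reads at P1 (2.19 to 2.57), 1.96% at P7 (1.66 to 2.31) and 2.17% at P17 (1.04 to 4.03). The reads of miR-20b-5p were 0.703% of those of miR-20a-5p at P1 (0.624 to 0.790), 0.468% at P7 (0.364 to 0.593) and 2.14% at P17 (1.17 to 3.62), so that this proportion was higher at P17. How reads that match both paralogs were counted is not given in the sources used here, and whether some reads of the abundant form were counted under the rare one was not tested. The 3p forms of miR-106a and miR-20b had 0 reads in all 3 libraries, which allows up to 0.263, 0.235 and 0.257 RPM at P1, P7 and P17. The same cluster did give reads of miR-363-3p, whose sequence is not that of a family form, with counts of 478, 114 and 58 over the 3 ages.

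The order of the 6 5p forms differed at each age. At P1 it was miR-20a-5p, miR-93-5p, miR-17-5p, miR-106b-5p, miR-106a-5p and miR-20b-5p, and no neighbours in this order had overlapping intervals. At P7 miR-93-5p came before miR-20a-5p, and the rest kept their places. At P17 miR-106b-5p (103 to 115 RPM) came before miR-93-5p (88.4 to 99.6 RPM), miR-20a-5p and miR-17-5p, and only the neighbours miR-20b-5p and miR-106a-5p overlapped. Among all miRNAs, miR-20a-5p took place 38 at P1, 59 at P7 and 231 at P17. MiR-106b-5p took places 88, 97 and 180.

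The 3p forms were lower at each later age too, and from P1 to P17 by smaller folds than the 5p forms, although the intervals of miR-17-3p, miR-20a-3p and miR-93-3p overlapped that of miR-106b-5p, and those of miR-20a-3p and miR-93-3p also that of miR-20b-5p. MiR-106b-3p, the most abundant 3p form, had 1675, 564 and 196 RPM at P1, P7 and P17. It made up 92.7% of the reads of the 4 3p forms at P1, 91.7% at P7 and 92.9% at P17. MiR-17-3p had 77.2, 29.5 and 9.09 RPM at P1, P7 and P17. MiR-20a-3p had 29.1, 10.97 and 3.34 RPM, and miR-93-3p had 26.5, 10.3 and 2.66 RPM. From P1 to P17 the 3p forms were 8.49- to 9.97-fold lower, and the intervals of these 4 folds overlap. The pooled 3p forms differed by -1.56 and then by -1.54 on the log2 scale, against -1.52 and -3.63 for the pooled 5p forms. The 5p and 3p sums thus differed by similar amounts in the first step and apart in the second.

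The share of the 5p arm within each hairpin is free of scaling, and it differed between hairpins in the first step. For miR-17 the 5p arm made up 96.8% of the hairpin's reads at P1 (96.5 to 97.0), 95.4% at P7 (94.9 to 95.8) and 81.3% at P17 (77.8 to 84.4). For miR-20a it was 99.2% at P1 (99.1 to 99.3), 99.1% at P7 (98.9 to 99.2) and 94.4% at P17 (92.4 to 96.0). For miR-93 it was 99.2% at P1 (99.1 to 99.3), 99.3% at P7 (99.1 to 99.4) and 97.2% at P17 (96.1 to 98.1). Each of these 3 hairpins had a lower 5p share at P17 than at P1 and P7, with no overlap. From P1 to P7 the share was lower for miR-17 alone, and the intervals of miR-20a and miR-93 overlapped.

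The miR-106b hairpin was the exception, with more 3p than 5p reads at all ages. Its 5p share was 41.7% at P1 (41.2 to 42.2), 47.7% at P7 (46.9 to 48.6) and 35.6% at P17 (34.02 to 37.2). The share was therefore highest at P7 and lowest at P17. At P17 miR-106b-3p, with 196 RPM, exceeded every 5p form of the family, whereas at P1 it lay below miR-20a-5p, miR-93-5p and miR-17-5p. Over the 4 hairpins together, the seed-bearing 5p arms made up 85.3% of reads at P1 (85.1 to 85.5), 85.7% at P7 (85.4 to 86.0) and 58.5% at P17 (57.2 to 59.8). This pooled share also depends on the mix of hairpins. The miR-106b hairpin gave 13688 of the 120024 5p reads and 19143 of the 20661 3p reads at P1. At P17 it gave 1264 of the 3471 5p reads and 2287 of the 2463 3p reads. The part of the mix in the pooled difference was not tested.

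**Figure D3:**
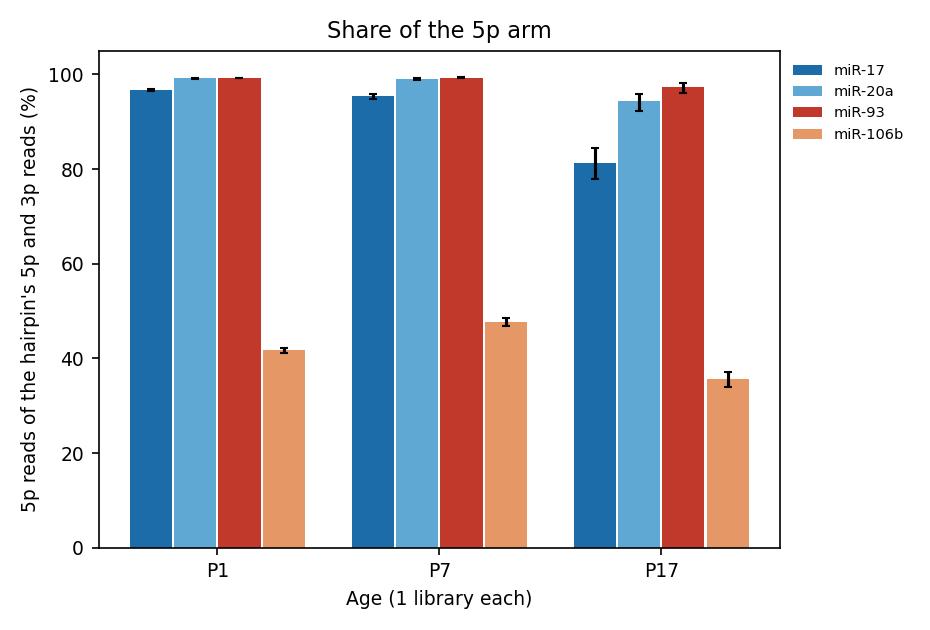
Share of 5p reads among the 5p and 3p reads of each hairpin, in percent, for the 3 ages (1 library each); bars on the columns are 95% exact binomial intervals. The columns of miR-17, miR-20a and miR-93 stand at 96.8% or above at P1 and lower at P17, and those of miR-106b stay below 50% at each age, between 35.6% and 47.7%.

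All 10 forms passed the filter of a mean of 1 RPM, and all 10 were over 2-fold lower at P7 than at P1, at P17 than at P7 and at P17 than at P1. The background differed greatly between these steps. Of the 648 miRNAs past the filter, 50.3% were over 2-fold lower from P1 to P7, 16.8% from P7 to P17 and 51.2% from P1 to P17. The median log2 difference of the 10 forms was -1.49 in the first step and -2.21 in the second, against -1.004 and -0.06 for all miRNAs tested. Ranked by the fall from P7 to P17 among the 648, miR-20a-5p was in place 1, miR-17-5p in place 2, miR-93-5p in place 3 and miR-106a-5p in place 5, whereas miR-106b-5p was in place 22. From P1 to P7 the highest of these places held by a 5p form was 66, for miR-20b-5p, and miR-93-5p was in place 254. For these places a count of 0 was set to 3 reads, which limits the fall that a miRNA with few earlier reads could show. The place of miR-106a-5p from P7 to P17 rests on 10 reads at P17, with a log2 interval of -4.89 to -2.88.

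The count in the first step depended on the scaling, and that in the second did not. With a pseudocount of 5 RPM, however, the second count was 7 of 10, against 6.79% of all miRNAs. It then left out miR-20a-3p, miR-20b-5p and miR-93-3p. With median-of-ratios size factors, which bring the typical miRNA near a difference of 0, 2 of the 10 forms (miR-106a-5p and miR-20b-5p) were over 2-fold lower from P1 to P7, against 15.1% of all miRNAs. Under the same factors, 10 of the 10 were over 2-fold lower from P7 to P17, against 15% of all miRNAs. The pooled log2 difference with these factors was -0.56 in the first step and -3.54 in the second. Trimmed-mean (TMM) factors gave the same 2 and 10 forms, against 15% and 15.7% of all miRNAs, and from P1 to P17 both sets of factors gave 10 forms against 27.6%. The 10 most abundant miRNAs of each library were also left out of every total. With these reduced totals, 4, 10 and 10 forms were over 2-fold lower in the 3 comparisons, against 24.8%, 25.3% and 42.1% of all miRNAs. No form was higher at a later age under any of these 4 scalings, whereas over 2-fold higher levels were found for 3.7%, 16.8% and 11% of all miRNAs in RPM. For the size factors these shares were 12.2%, 18.5% and 26.9%, for TMM 13.1%, 18.1% and 26.9%, and for the reduced totals 8.02%, 13.3% and 15.3%.

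**Figure D4:**
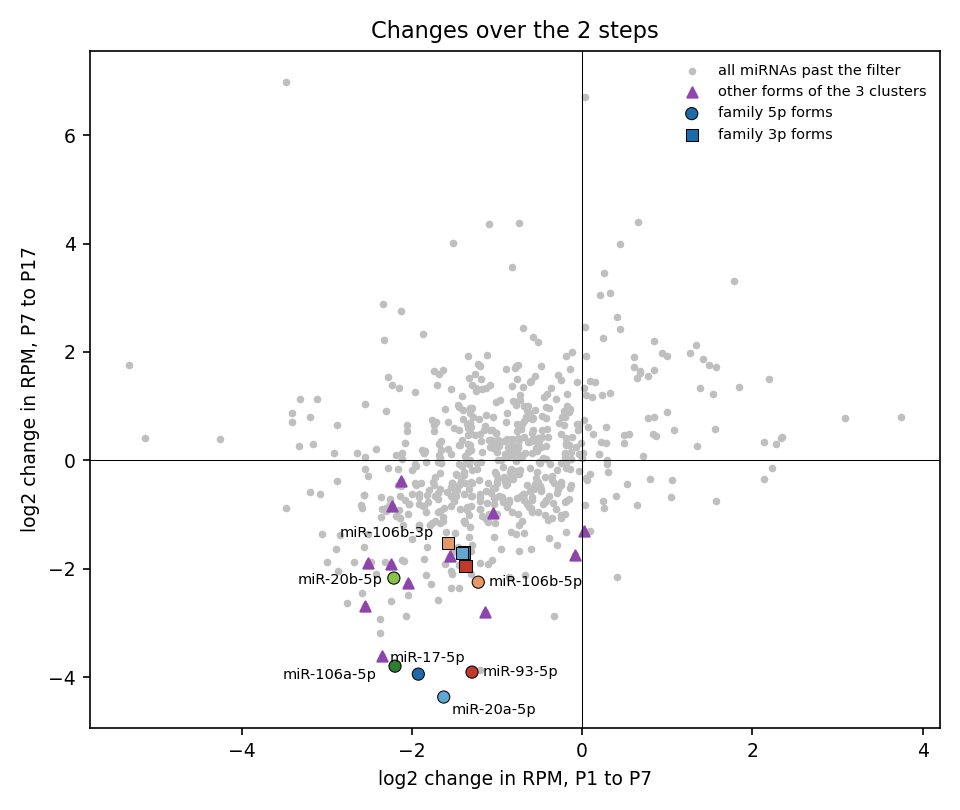
Each of the 648 miRNAs past the filter by its log2 difference in RPM from P1 to P7 (x axis) and from P7 to P17 (y axis), 1 library per age, with other forms of the 3 clusters as triangles and family forms filled by hairpin. The family's 5p forms (circles) sit at -2.17 or below on the y axis, with miR-20a-5p lowest at -4.37, and its 3p forms (squares) sit between -1.95 and -1.52.

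The other miRNAs of the 3 clusters are cut from the same primary transcripts. Of the 18 other forms listed, 3 had no reads at any age and 12 passed the filter. In RPM, 12 of these 12 were over 2-fold lower from P1 to P17, against 51.2% of all miRNAs, with a median log2 difference of -3.63 and a range of -5.96 to -1.27. From P1 to P7, 10 of the 12 were over 2-fold lower, against 50.3% of all miRNAs, and from P7 to P17 9 were, against 16.8%. With median-of-ratios or TMM factors the counts from P1 to P7, P7 to P17 and P1 to P17 were 7, 9 and 9, and with the reduced totals 7, 11 and 11. The shares of all miRNAs were 15.1%, 15% and 27.6% with median-of-ratios factors and 15%, 15.7% and 27.6% with TMM factors. With the reduced totals they were 24.8%, 25.3% and 42.1%. None of the 12 forms was over 2-fold higher, except 1 form from P1 to P7 with TMM factors. The median from P7 to P17 was -1.82 for these 12 forms and -2.21 for the 10 family forms. Split by arm, it was -2.47 for the 6 other 5p forms against -3.85 for the 6 5p family forms, and -1.52 for the 6 other 3p forms against -1.71 for the 4 3p family forms.

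Within Mir17hg the 5p family forms differed from some of their neighbours and not from others. Along the transcript the hairpins run miR-17, miR-18a, miR-19a, miR-20a, miR-19b-1 and miR-92a-1, within 836 bases. MiR-17-5p and miR-20a-5p differed from P1 to P17 by -5.87 and -5.99 on the log2 scale, and miR-18a-5p, from the hairpin between miR-17 and miR-19a, by -5.96 (-6.51 to -5.46). MiR-19a-3p, from the next hairpin, differed by -1.82 (-1.90 to -1.75), from 599 RPM at P1 to 564 RPM at P7 and 169 RPM at P17. The reads of miR-17-5p were 13.5 times those of miR-18a-5p at P1 (12.9 to 14.1), 18.1 times at P7 (16.4 to 19.98) and 14.4 times at P17 (10.04 to 21.3). Against miR-19a-3p they were 3.84 times at P1 (3.74 to 3.95), 1.07 times at P7 (1.04 to 1.11) and 0.233 times at P17 (0.210 to 0.258). The 5p and 3p forms of a hairpin also differed from each other outside the family, with -5.96 for miR-18a-5p against -4.15 for miR-18a-3p from P1 to P17, and -4.31 for miR-92a-1-5p against -3.32 for miR-92a-3p. MiR-19b-1-5p, with 5 reads at P17, differed by -3.94, and miR-19b-3p by -1.27. The family forms compared here are 5p forms and miR-19a-3p is a 3p form, so that hairpin and arm cannot be told apart in that comparison. MiR-19b-3p and miR-92a-3p can come from both Mir17hg and miR-106a-363, so that their reads cannot be placed at either.

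In the Mcm7 intron the forms of miR-25 lay on either side of miR-106b-5p. MiR-25-5p, with 134, 23.4 and 6.35 RPM at the 3 ages, differed by -4.40 from P1 to P17 (-4.75 to -4.06), against -3.47 for miR-106b-5p and -5.20 for miR-93-5p. MiR-25-3p, the most abundant form of the miR-106b-25 cluster and not a member of the seed family, had 10373, 5014 and 2550 RPM at P1, P7 and P17, and its log2 difference from P1 to P17 was -2.02 (-2.04 to -2.01). The reads of miR-93-5p were 33.2% of those of miR-25-3p at P1 (32.8 to 33.6), 28.0% at P7 (27.6 to 28.5) and 3.68% at P17 (3.46 to 3.91). Those of miR-106b-5p were 11.5% at P1 (11.3 to 11.8), 10.3% at P7 (10.003 to 10.5) and 4.25% at P17 (4.02 to 4.50). Both proportions were lower at P17 than at P7 beyond counting error, and that of miR-93-5p by the larger factor.

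**Figure D5:**
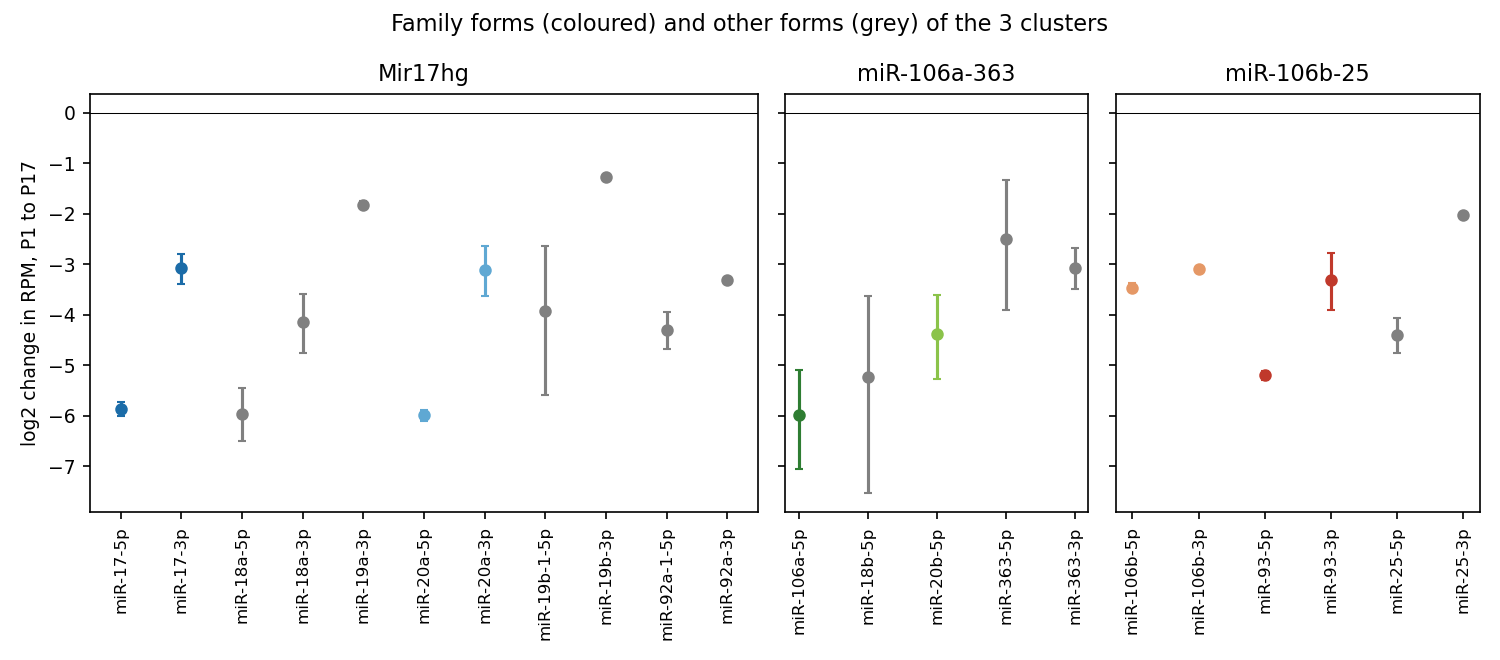
Log2 difference in RPM from P1 to P17 for the forms of the 3 clusters that passed the filter, ordered along each transcript, with 95% exact binomial intervals (1 library per age); family forms are coloured and other forms grey. MiR-17-5p, miR-18a-5p, miR-20a-5p and miR-106a-5p lie lowest, between -5.99 and -5.87, whereas miR-19a-3p (-1.82), miR-19b-3p (-1.27) and miR-25-3p (-2.02) lie highest.

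Grouped by seed, 1623 of the 1915 miRNAs could be matched to a mature sequence, and they held 94.9% to 96.6% of the reads of a library. These formed 1352 seed families, of which no minimum level was required. Ordered by summed RPM, the miR-17 family took place 14 at P1, place 21 at P7 and place 82 at P17. A single unmatched form lay above the family's sum at P1 and at P7, and 13 did at P17. The families in places 1 to 3 were those led by let-7i-5p, miR-9-5p and miR-26a-5p at P1, by miR-182-5p, let-7f-5p and miR-9-5p at P7, and by let-7f-5p, miR-182-5p and miR-183-5p at P17. A further miRNA with the same seed, miR-6383, had 0 reads in each library. Among the matched forms, the embryonic miRNAs whose seed is AAGUGCU, the same letters shifted by 1 base, were nearly absent, and unmatched names were not searched. Of 5 such forms, miR-302b-3p had 15 reads at P1, then 4 and 1, miR-302d-3p had 10 reads and miR-295-3p 2 reads at P1 and 0 later, and the others had 0.

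The miRNAs whose pattern was most like that of the pooled 5p forms were taken by the Euclidean distance between their pairs of log2 differences (P1 to P7 and P7 to P17), over 3 libraries. The nearest of the miRNAs outside the family was miR-149-3p at a distance of 0.397, with 33, 16 and 1 reads at P1, P7 and P17. It was followed by miR-18a-5p (0.831), which is of the Mir17hg cluster and had 1951, 428 and 32 reads. The next were miR-19b-1-5p (0.911), miR-3095-3p (0.934) and miR-466k (0.963), each with 5 reads or fewer at P17. Except for miR-18a-5p, these places rest on at most 5 reads at P17, so that their order is uncertain.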

How the data were processed

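Small RNA libraries were made from retinas of C57BL/6 mice (C57BL/6J in the methods) at P1, P7 and P17, with 1 library of 5 pooled eyes per age. Per the study's methods, the reads were trimmed of adaptors, filtered for quality and aligned by the authors to mm10 with HISAT2. The submitters' processing notes name FastQC and BWA instead, and the conflict could not be settled. The miRNA annotation and the counting rule are not given in the sources used here. The authors deposited for each library the raw read count of each mature miRNA, and RPM values. The deposited RPM equals the count divided by the sum of miRNA counts, to within 0.0192 RPM, and RPM was computed here from the counts.

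Changes are log2 ratios of RPM without a pseudocount. Across all miRNAs, a count of 0 was set to 3 reads. A mean level of 1 RPM was required, and a ratio over 2-fold was called. With 1 library per age no test between ages was made. The members and lists were chosen with earlier results of these data known. The text names all members, the other forms of the clusters, miRNAs with the same seed, the 5 nearest patterns and the 3 highest seed families per age. The cluster neighbours set against members one by one, miR-302 and miR-295 forms, the paralog pairs, and the split by arm and other scalings of the cluster neighbours were chosen after the data were seen. The ratio, filter and call were run on simulated counts. For the calls, the known shift in composition was taken out, so that this run does not check the choice of scaling. The alternatives were size factors by median of ratios, edgeR TMM factors, a total that leaves out the 10 miRNAs most abundant in any library, pseudocounts of 1 and 5 RPM, other filters and folds, and other sets of forms. Sequences came from RefSeq (GRCm38.p6) and gene positions from GENCODE (GRCm38, the same build as mm10), and all 10 members matched. Python 3.11.15, scipy 1.17.1, R 4.3.3 and edgeR 4.0.16 (TMM only) were used.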

Additional observations from a re-analysis of the deposited data

How the results depend on the processing

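No difference of a family form or of a pooled level changed its sign under any alternative. Of 111 alternative values for the main quantities, 78 stayed within the 95% interval of counting error or, for counts and places, within 1.5 times. Some of these 78 could not move by construction and say nothing about the processing. Mean reads per hairpin give the same shares, as each locus has the same number of 5p forms. Taking every form with the seed adds only miR-6383, with 0 reads. Counting the paralogs at Mir17hg leaves the share of miR-106b-25 as it is. As all 10 forms were over 2-fold lower in each comparison, a 1.5-fold criterion or no filter had to leave all 10 lower. For the same reason, no form could be called higher with any of the pseudocounts, filters or folds. The pooled 5p log2 differences from P1 to P7, P7 to P17 and P1 to P17 were -0.56, -3.54 and -4.10 under size factors by median of ratios, -0.53, -3.56 and -4.10 under TMM factors, and -0.89, -3.87 and -4.76 when the total left out the 10 miRNAs most abundant in any library. Without miR-20a-5p, the most abundant 5p form at P1, they were -1.46, -3.38 and -4.85, and with the 3p forms added the last 2 were -3.08 and -4.60. The pseudocounts of 1 and 5 RPM did not move the pooled level beyond counting error. From P1 to P7, 2 forms were over 2-fold lower with median-of-ratios or TMM factors, against 15.1% and 15% of all miRNAs. With the reduced total 4 were, against 24.8%. Over 4-fold lower were 2 forms from P1 to P7, against 14.7% of all miRNAs, and 6 from P7 to P17, against 4.94%. With a pseudocount of 5 RPM, 7 forms were over 2-fold lower from P7 to P17, against 6.79% of all miRNAs. With the 3p forms included, the shares at P1, P7 and P17 were 48.2%, 41.8% and 21.1% for Mir17hg, 51.2%, 57.8% and 78.5% for miR-106b-25, and 0.643%, 0.402% and 0.403% for miR-106a-363, so that miR-106b-25 then led at P1 too. With miR-106a-5p and miR-20b-5p counted at Mir17hg, as near-identical paralogs, its share was 56.1% at P1 and 48.1% at P7, and miR-106a-363 was left with 0%. Of 150 alternative values for single forms, 83 moved beyond counting error and none changed sign. Depth limits miR-106a-5p and miR-20b-5p, with 10 and 14 reads at P17. For all of these shifts the cause was not tested. No paired analysis was possible because an age is represented by a single library.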

Other observations

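MiR-486a-5p and miR-486b-5p, which have the same mature sequence, were listed with 1311 reads each at P1 and at P7 and 1454 each at P17, so that reads of this sequence appear under both names. In the same libraries miR-17-5p and miR-106a-5p, which differ at 1 base, were listed with 26291 and 624 reads at P1. MiR-467a-5p and miR-467b-5p were listed with 9936 and 9934 reads at P1 and with equal counts at P7 (3906) and at P17 (2126).

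Among all miRNAs past the filter with a matched sequence, the median log2 difference from P1 to P17 was -1.06 for 104 forms of 21 bases, -0.86 for 286 forms of 22 bases and -1.18 for 92 forms of 23 bases. Among the 5p family forms it was -3.47 for miR-106b-5p, the single form of 21 bases, and -5.99 to -4.38 for the 5 forms of 23 bases.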
